A study of Mus musculus with 4 samples.

Results

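Open chromatin was described at the genes of 10 transcription factors that pair or cooperate on DNA: the BATF proteins Batf and Batf3, the interferon regulatory factors Irf4 and Irf8, and the AP-1 subunits Jun, Junb, Jund, Fos, Fosl1 and Fosl2. The members were fixed by name, and a locus was the gene record of a member in the mouse genome (mm10) with 30 kb on each side. Of the 93679 regions formed by merging overlapping ATAC-seq peaks of the 4 libraries, 135 lay in these 10 loci, and the genes were 10 of 21911 protein-coding genes. ATAC-seq marks DNA that a transposase can reach. It was done on naive CD4+ T cells (CD62LhighCD44lowCD25-) from the spleen of male C57BL/6 mice aged 7 weeks. All cells were activated for 48 h by antibodies to CD3 (5 µg/ml, bound to the plate) and CD28 (1 µg/ml, in solution). They received IL-2 at 10 ng/ml together with TGF-β1 at 5 ng/ml, which drive differentiation toward inducible regulatory T cells (iTreg). The iTreg+PBS cells received no IL-4 and the iTreg+IL-4 cells received 15 ng/ml of it, with 2 libraries each. The study calls the replicates independent pooled samples, so a library is a pool and not a single mouse.

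AP-1 is a dimer of a JUN protein with a FOS or BATF protein, and T cell receptor signalling through mitogen-activated kinases switches it on. BATF has no activation domain of its own. In T cells it binds DNA with a JUN partner and recruits IRF4 or IRF8 to composite elements, and BATF and IRF4 are known to be needed for several effector T cell fates, among them the IL-4-producing Th2 cell, and for effector regulatory T cells. IL-4 signals through STAT6, which binds a palindrome of TTC and GAA spaced 4 bases apart.

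Regions are named here by the gene and the distance in kb of their centre from its nearest start site, with a minus sign for upstream. The sequences below come from distal regions that a result turns on, because they ranked best at their locus, differed in rank between the conditions or were called only with IL-4. They were read from the GRCm38 (mm10) plus strand, around the motif letters. In the first set the capitals mark the AP-1 motif TGANTCA, in which N is any base.
Irf4 +43.3 kb, chr13:30792474-30792520: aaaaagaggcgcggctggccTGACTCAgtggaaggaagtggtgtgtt
Irf8 -20.9 kb, chr8:120715470-120715516: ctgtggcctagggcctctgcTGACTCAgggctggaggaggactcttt
Jund -14.5 kb, chr8:70684489-70684535: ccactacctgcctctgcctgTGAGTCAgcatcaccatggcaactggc
Jun +16.6 kb, chr4:95035670-95035716: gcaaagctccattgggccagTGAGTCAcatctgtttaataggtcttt
Fosl1 -14.0 kb, chr19:5433521-5433589: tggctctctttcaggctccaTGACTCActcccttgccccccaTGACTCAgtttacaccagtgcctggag
Batf3 +4.7 kb, chr1:191103038-191103174: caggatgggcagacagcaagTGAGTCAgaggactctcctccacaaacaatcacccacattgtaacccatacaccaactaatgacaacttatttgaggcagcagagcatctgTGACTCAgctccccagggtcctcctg
Batf +40.3 kb, chr12:85726867-85726902: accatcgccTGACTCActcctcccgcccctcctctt

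In the next sequence the capitals mark 2 matches of the STAT6-type palindrome. Of the regions called in all 4 libraries, it comes from the one whose rank differed most between the conditions.
Batf -16.5 kb, chr12:85670059-85670268: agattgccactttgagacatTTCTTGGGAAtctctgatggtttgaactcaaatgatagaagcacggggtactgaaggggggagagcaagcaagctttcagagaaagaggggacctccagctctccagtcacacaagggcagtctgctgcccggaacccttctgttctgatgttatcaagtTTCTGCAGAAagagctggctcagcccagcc

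The authors called peaks in each library on its own. The lists held 56645 to 78670 peaks, with iTreg+PBS replicate 2 the shortest, and the number of reads behind them is unknown. Peak heights were taken as not scaled between libraries, so each peak was ranked within its own list. The rank is the percent of peaks with a higher −log10 q-value, where 0 is the top and 100 the bottom. An exact two-sided permutation test of 2 libraries against 2 cannot give a p under 0.33, so by this test no comparison between the conditions could pass 0.05. A promoter peak was called in all 4 libraries at 8 of 8 T cell genes (Cd3d, Cd3e, Cd3g, Cd4, Cd2, Cd5, Cd28 and Lck). For the 12 B cell, myeloid and NK cell genes, 1 promoter had a peak in all 4 libraries (Cd14), 5 had one in some, and 6 in none. Of the CD8 T cell genes, the promoter of Cd8b1 was called in 4 libraries and that of Cd8a in 2. The part of other cells in the values below was not tested.

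The 10 loci were open in both conditions. A peak touched the promoter, from 1 kb upstream to 0.5 kb downstream of a start site, in all 4 libraries at 10 of 10 genes, against 57.4% of all protein-coding genes. Of the 135 regions, 77 (57.0%) were called in all 4 libraries, against 51% of all merged regions. The 77 included the 11 regions over the members' own promoters and 10 of 12 over promoters of neighbouring genes. Of all regions near a start site, 85.8% were called in all 4 libraries. The 77 also held 56 of 112 distal regions (50.0%, against 44.7% of all distal regions). Most centres lay outside coding transcripts: 93 were in no basic protein-coding transcript, called intergenic here, 24 intronic, 9 in coding exons and 9 in untranslated regions. The 93 include 3 inside the gene record of Junb, past the end of its coding transcript, and a read-through record that spans the whole Irf8 locus was passed over.

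How much of a locus lay inside peaks differed widely among the 10 genes. Irf4 stood first, with 15.41% of its locus inside peaks on average over the libraries, and 0.21% of all protein-coding loci had a larger share. Junb followed with 14.16% (0.361% of loci above it), then Fosl1 with 10.06% and Fos with 9.045%. At Jund, Batf, Batf3 and Irf8 the share was between 7.067% and 8.504%. Jun had 4.862% and Fosl2 only 3.02%, close to the median of all loci at 2.796%, and the median of the 10 members was 8.477%. The shares include peaks over promoters of neighbouring genes, which made up 6 of 12 regions at Fosl1, 4 of 17 at Junb and 2 of 11 at Jund.

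**Figure D1:**
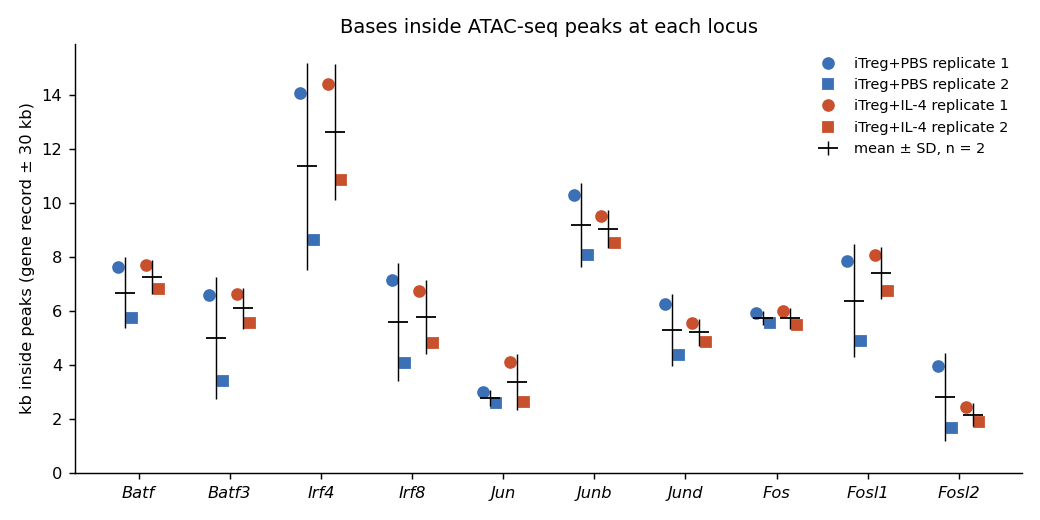
Bases inside peaks, in kb, at each of the 10 loci (gene record with 30 kb on each side), one point per library (circles replicate 1, squares replicate 2) with the mean and SD of each condition. The points of the conditions interleave at every locus, and the square of iTreg+PBS is the lowest at all loci except Fos, where it lies between the iTreg+IL-4 libraries.

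At each locus, the difference in open DNA with IL-4 was within the spread of the libraries. At Irf4, peaks covered 14048 bases in iTreg+PBS replicate 1 and 8630 in replicate 2, against 14392 in iTreg+IL-4 replicate 1 and 10849 in replicate 2. Replicate 1 of each condition was high and replicate 2 low. The mean was 11339 ± 3831 bases without IL-4 and 12621 ± 2505 bases with it (SD, n = 2, exact two-sided permutation test, p = 0.667). At Batf the values were 7602 and 5747 bases for iTreg+PBS against 7706 and 6804 for iTreg+IL-4 (exact two-sided permutation test, p = 0.667). Fos was the most even, with 5927 and 5543 bases against 6006 and 5456 bases (exact two-sided permutation test, p = 1). For the other 7 loci the same test gave p between 0.667 and 1. None of the 10 loci had more bases inside peaks in both iTreg+IL-4 libraries than in both iTreg+PBS libraries, which 16.3% of all protein-coding loci had, and none had fewer, which 1.92% had. Summed over the loci, peaks covered 72580 and 48883 bases for iTreg+PBS against 71122 and 58050 for iTreg+IL-4. The difference of the means was 3854.5 bases (60732 ± 16756 against 64586 ± 9243 bases, SD, n = 2). A single library set its sign: with iTreg+PBS replicate 2 left out it was -7994 bases, with iTreg+IL-4 replicate 1 left out -2681.5, with iTreg+PBS replicate 1 left out 15703 and with iTreg+IL-4 replicate 2 left out 10391.

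Of the 135 regions, 1 was called with IL-4 in both libraries but in no iTreg+PBS library, against 2.6% of all merged regions. It was Batf +40.3 kb (chr12:85726813-85727221), downstream of the gene, and it ranked low. In those libraries 72.5% and 79.2% of peaks had a higher −log10 q, and its heights were 36 and 24 fragments. No region was called in both iTreg+PBS libraries only, against 0.699% of all merged regions. These counts turned on single libraries. The count with IL-4 was 17 without iTreg+PBS replicate 1, 2 without iTreg+IL-4 replicate 1 and 11 without iTreg+IL-4 replicate 2, and the count without IL-4 was 2 without iTreg+PBS replicate 1, 11 without iTreg+PBS replicate 2, 4 without iTreg+IL-4 replicate 1 and 1 without iTreg+IL-4 replicate 2. Calls followed the replicate number: 13 regions (9.63%) were called in both libraries numbered 1 and in neither numbered 2, against 7.6% of all merged regions, and 0 the other way round, against 0.48%. Of the 20 regions called in 3 libraries, 16 lacked a peak only in iTreg+PBS replicate 2 and 4 only in iTreg+IL-4 replicate 2, against 72.9% and 16.4% of all regions called in 3. The pattern at the loci was near that of all regions.

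The promoters fell into a narrow top band, with Batf3 apart from the rest. Jund, a JUN protein that many resting cells also make, ranked first, with 1.47% and 1.52% of peaks above it in iTreg+PBS replicates 1 and 2 and 1.79% and 1.82% in iTreg+IL-4 replicates 1 and 2. Jun, the founding JUN protein, came next with 2.64% and 3.85% without IL-4 against 4.12% and 4.17% with IL-4. The region over the start site of Fosl2 had 4.24% and 8.74% against 4.86% and 6.48%, and that of Irf8 5.76% and 6.07% against 6.97% and 6.29%. Jund and Jun kept their places in every library, whereas the values of Fosl2, Irf8 and Fos overlapped. Fos, the immediate early partner of JUN, had 7.84% and 9.08% against 6.87% and 8.94%.

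Further down the band lay Fosl1, Irf4, Batf and both promoter regions of Junb. Fosl1 had 12.5% and 14.4% of peaks above it without IL-4 against 10.7% and 11.7% with IL-4. Irf4 had 12.7% and 15.6% against 12.2% and 12.9%, and its region was the widest of the promoters at 2373 bases. Batf had 16.1% and 19.9% against 14.8% and 16.8%. Junb, which restrains or replaces JUN in many dimers, had 2 regions: 12.7% and 11.6% against 11.5% and 11.4% at +0.6 kb, and 10.0% and 13.9% against 12.3% and 13.5% at -1.4 kb. Batf3, a close relative of BATF best known from dendritic cells, had no peak on its annotated coding start site itself. Its region at -1.0 kb touched the upstream end of the promoter window and had 37.8% and 74.0% of peaks above it against 32.8% and 42.9%. The median rank of the 11 promoter regions was 11.6%, close to the 12.0% of all regions near a start site that were called in all 4 libraries.

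**Figure D2:**
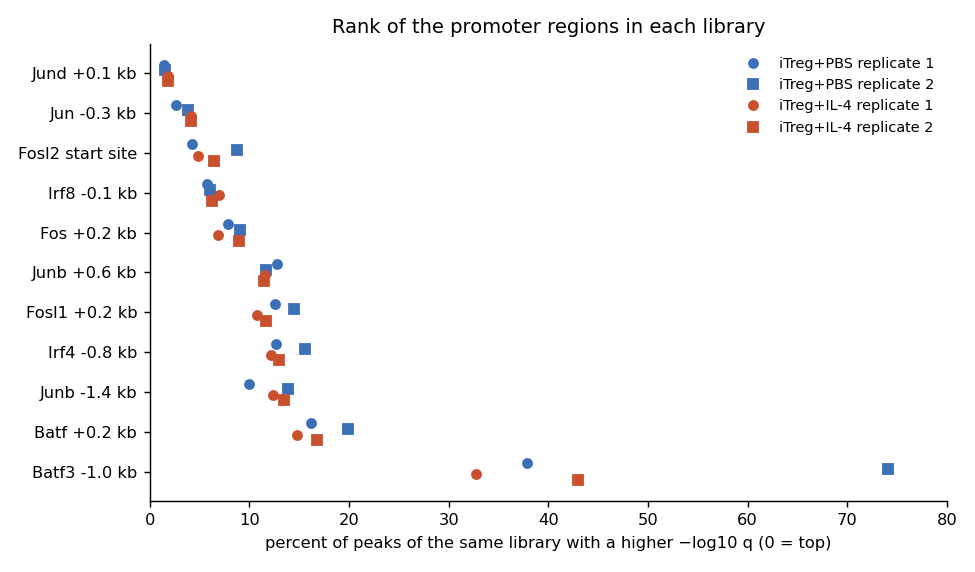
Rank of each promoter region in each library, as the percent of peaks of that library with a higher −log10 q (0 is the top), with blue for iTreg+PBS and red for iTreg+IL-4, circles for replicate 1 and squares for replicate 2. All regions except Batf3 -1.0 kb sit below 20% in every library.

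Distal regions held the strongest peaks at some genes and only weak ones at others. Fos -18.5 kb (chr12:85454950-85455825, intergenic) was the best ranked of all 135 regions, with 0.463% and 0.738% of peaks above it without IL-4 against 0.862% and 0.526% with IL-4. It ranked above the promoter of Fos in every library. Fos +12.2 kb, downstream of the gene, also ranked above the promoter, with 2.44% and 2.56% against 1.94% and 2.24%. Batf +18.9 kb (chr12:85704708-85706349), in an intron of Batf, was 1642 bases wide and had 4.23% and 12.0% against 6.84% and 8.80%, nearer the top than the promoter of Batf in all 4 libraries. Junb +2.2 kb, in the Junb record past the 3′ end of the coding transcript, had 7.17% and 6.48% against 6.58% and 8.22%.

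The best ranked distal region of each IRF gene was intergenic, above the promoter at Irf4 and below it at Irf8. Irf4 +43.3 kb (chr13:30792087-30792900), whose AP-1 match is printed above, had 9.86% and 12.3% of peaks above it without IL-4 against 10.9% and 11.4% with IL-4, nearer the top than the Irf4 promoter in all 4 libraries. Irf8 -20.9 kb (chr8:120715130-120715722), also with an AP-1 match, had 7.19% and 16.2% against 10.3% and 15.7%, below the Irf8 promoter in every library. Irf8 is better known from B cells and myeloid cells. Of the 9 promoters of B cell and myeloid genes examined, that of Cd14 had a peak in 4 libraries, those of Ms4a1 and Itgam in 3, those of Pax5 and Cd22 in 1, and the other 4 in none, and their part in the values at Irf8 was not tested.

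For the remaining genes the best distal region ranked lower. Batf3 +27.8 kb had 12.3% and 17.8% without IL-4 against 12.6% and 15.7% with IL-4, well above the promoter region of Batf3. Jund -14.5 kb had 15.1% and 31.5% against 15.4% and 23.1%, Jun +16.6 kb had 31.1% and 59.1% against 41.5% and 49.8%, and Fosl1 -14.0 kb had 38.1% and 53.9% against 40.6% and 37.0%. Fosl2 -2.4 kb had 32.8% and 85.2% against 39.9% and 59.8%. The last was the only distal region of Fosl2 called in all 4 libraries. Of the 7 regions at Fosl2, 4 were called in iTreg+PBS replicate 1 alone, as were 11 of the 135 regions of all 10 loci. At each of the 5 best distal regions given here, iTreg+PBS replicate 2 had the lowest rank of the 4 libraries.

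Irf4 (chr13:30749226-30766976, plus strand) had the most regions of the 10 loci, 24, and all 4 libraries called 11 of them. A group of 7 regions stood between +36.6 and +47.1 kb, beyond the 3′ end of the gene, and held the best ranked distal region described above. Irf4 +37.2 kb in the same group had 11.4% and 22.7% of peaks above it in the iTreg+PBS libraries against 12.3% and 15.7% in the iTreg+IL-4 libraries. Irf4 +41.2 kb, which held both an IRF and a STAT6-type match, was missing from iTreg+PBS replicate 2 and had 44.6% of peaks above it in iTreg+PBS replicate 1, against 39.1% and 45.3% with IL-4. Inside the gene, the intronic Irf4 +11.6 kb was 1459 bases wide and had 16.0% and 20.2% against 15.1% and 15.2%. Among the distal regions upstream, Irf4 -16.3 kb had the best median rank, with 26.7% and 58.1% against 20.3% and 35.6%. There iTreg+PBS replicate 2 lay far from the other 3 libraries, and in it Irf4 -6.7 kb ranked nearer the top (53.7%).

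Batf (chr12:85686669-85709087, plus strand) had 16 regions, and all 4 libraries called 10 of them. Next to the promoter, the intronic Batf +1.4 kb had 17.7% and 37.3% of peaks above it in the iTreg+PBS libraries against 17.7% and 19.9% in the iTreg+IL-4 libraries. At the ends of the locus, Batf -25.7 kb had 17.8% and 26.9% against 19.2% and 26.3%, and Batf +43.1 kb had 23.8% and 62.9% against 27.0% and 31.5%. At Batf +1.4 kb and Batf +43.1 kb, 3 libraries lay close together and iTreg+PBS replicate 2 apart, whereas Batf -25.7 kb split by replicate number.

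Irf8 (chr8:120736358-120756694, plus strand) was open mainly upstream. Irf8 -10.6 kb had 11.3% and 18.8% of peaks above it in the iTreg+PBS libraries against 11.7% and 19.0% in the iTreg+IL-4 libraries, again by replicate number. Within the gene, Irf8 +7.9 kb was called in 1 library, Irf8 +12.4 kb in 2, and Irf8 +13.7 kb, with an IRF match, had 66.6% and 84.2% against 59.5% and 69.4%.

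Junb (chr8:84974484-84978718, minus strand) lies among close neighbours, and its locus took in promoter regions of other genes. Junb -11.8 kb, over the promoter of Hook2, and Junb +12.7 kb, over a promoter of Rnaseh2a, had between 4.47% and 6.59% of peaks above them in the 4 libraries. The distal Junb -7.1 kb, with an AP-1 match in its centre, had 11.4% and 13.2% in the iTreg+PBS libraries against 12.8% and 9.24% in the iTreg+IL-4 libraries. It ranked beside the promoter regions of Junb itself. Fos (chr12:85473890-85477273, plus strand) had the largest share of regions called in all 4 libraries, 9 of 11 (81.8%), and Fosl2 (chr5:32135801-32157842, plus strand) the smallest, 2 of 7 (28.6%). Upstream, Fos -26.7 kb had 7.07% and 15.0% against 6.23% and 10.0%, close to the promoter of Fos.

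**Figure D3:**
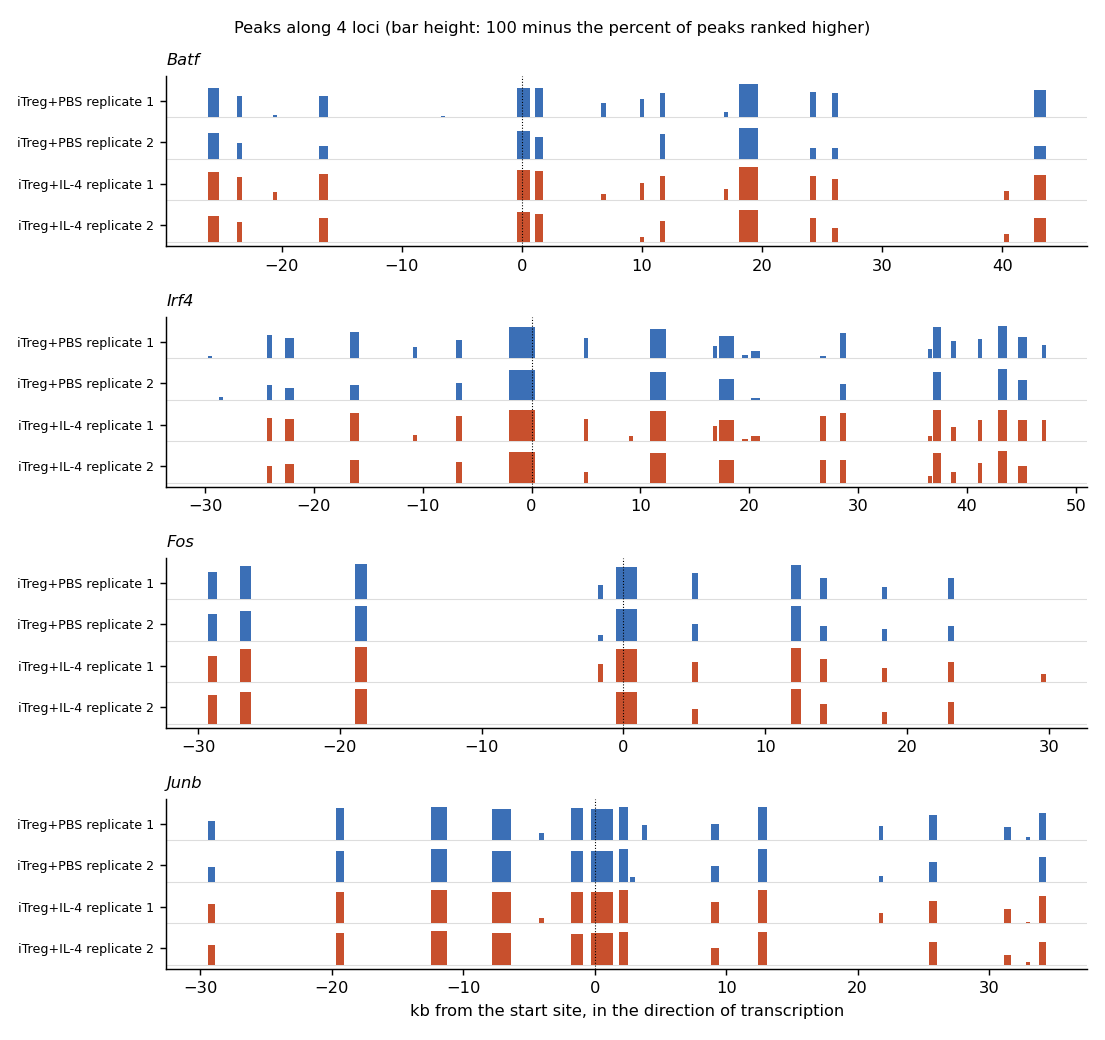
Peaks along the loci of Batf, Irf4, Fos and Junb, by distance in kb from the start site (dotted line) in the direction of transcription, with one row per library. Bars stand at the merged regions and their height is 100 minus the percent of peaks ranked higher, with narrow regions widened to stay visible. The tallest bars, such as Fos -18.5 kb and Batf +18.9 kb, recur in all 4 rows, and Batf +40.3 kb appears in the iTreg+IL-4 rows only.

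The typical difference in rank between the conditions at the loci was near that of all regions. Over the 77 regions called in all 4 libraries, the median difference in rank (mean with IL-4 less mean without) was -2.25 percentage points, against -2.05 over all 47767 such regions. Libraries of a condition differed by more, with a pooled SD of 8.15 points between their medians. The median was 1.23 points without iTreg+PBS replicate 2, -6.31 without iTreg+PBS replicate 1, -0.99 without iTreg+IL-4 replicate 1 and -3.60 without iTreg+IL-4 replicate 2. Both iTreg+IL-4 libraries ranked a region nearer the top than both iTreg+PBS libraries at 11 of the 77, against 19.7% of all such regions, and the reverse held at 4, against 5.18%.

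This percent depends on how long a list is, because a longer list adds weak peaks below the shared ones. When the regions called in all 4 libraries were ranked among themselves, the counts became 8 nearer the top with IL-4 and 10 without, against 14.3% and 12.7% of all such regions, and the median difference was 0.14 points. By both kinds of rank together, 5 regions lay nearer the top with IL-4, against 9.66% of all, and 3 without IL-4, against 3.52%. The 5 were Batf -16.5 kb, Batf3 +4.7 kb, Irf4 -6.7 kb, Fosl1 +9.8 kb and Fosl1 +20.9 kb. The last pair lie over the promoters of the neighbouring genes Ccdc85b and Ctsw.

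Among the 77 regions called in all 4 libraries, the largest difference in rank was at Batf -16.5 kb (chr12:85669778-85670523), upstream of Batf in intergenic DNA. In the rank among all peaks, 40.7% and 62.9% ranked above it without IL-4 against 24.8% and 32.1% with IL-4, and the conditions did not overlap. Ranked among the shared regions, the values were 63.6% and 72.7% without IL-4 against 40.7% and 45.3% with IL-4. Its heights were 63 and 21 fragments in iTreg+PBS replicates 1 and 2 and 121 and 67 fragments in iTreg+IL-4 replicates 1 and 2. For scale, the Batf promoter had heights of 229 and 100 against 236 and 179 fragments in the same libraries. The difference at Batf -16.5 kb was -23.3 points with a pooled SD of 11.7 points (n = 2 per condition), with -34.4 points without iTreg+PBS replicate 1 and -12.2 without iTreg+PBS replicate 2. The region was chosen for conditions that do not overlap, which fixes the sign when a single library is left out. This is the sequence with 2 STAT6-type matches printed above.

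Irf4 -6.7 kb (chr13:30742279-30742818), upstream of Irf4, had 48.5% and 53.7% of peaks above it without IL-4 against 28.7% and 41.7% with IL-4. The conditions did not overlap, and its 300 central bases held no match of any motif searched. Batf3 +4.7 kb (chr1:191102683-191103366), in an intron of Batf3 with 2 AP-1 matches, had 26.5% and 45.3% against 19.4% and 23.9%. Without iTreg+PBS replicate 2, its difference of -14.3 points shrank to -4.89 points. Jun -16.0 kb had 88.1% and 81.7% against 80.2% and 70.6%, in the lower part of each list. Junb +9.2 kb, over the promoters of Rnaseh2a and Prdx2, had 55.2% and 55.4% against 40.4% and 52.3%. Neither kept its separation when the shared regions were ranked among themselves.

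In the other direction 4 regions had the conditions apart. Irf8 +19.0 kb (chr8:120757069-120758221), downstream of Irf8, had 80.6% and 88.4% of peaks above it without IL-4 against 92.3% and 97.9% with IL-4, all among the weakest peaks. The difference was 10.6 points with a pooled SD of 4.82 points (n = 2 per condition), and 3.89 points when the shared regions were ranked among themselves. The promoters of Jun, Irf8 and Jund also ranked nearer the top without IL-4, by 0.90, 0.72 and 0.31 points. Ranked by height in place of −log10 q, the difference was 0.26 points at Jun, 0.84 at Irf8 and 0.037 at Jund. It was 0.29 points at Jun without iTreg+PBS replicate 1 and 0.38 at Irf8 without iTreg+IL-4 replicate 1, and at Irf8 +19.0 kb 6.71 points without iTreg+PBS replicate 1. At the Irf8 promoter the conditions overlapped once the shared regions were ranked among themselves, and at Irf8 +19.0 kb and the promoters of Jun and Jund they did not. Promoter regions were also apart in the direction of IL-4, at Fosl1 +0.2 kb (-2.26 points) and Junb +0.6 kb (-0.71 points). At both, the conditions overlapped in the rank among the shared regions.

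**Figure D4:**
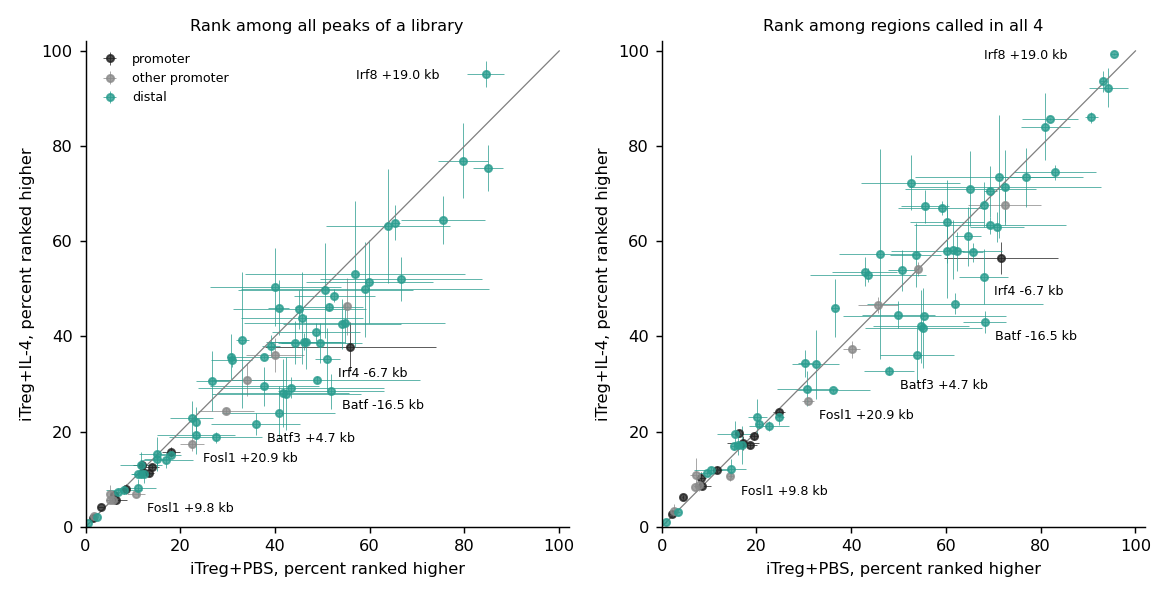
Mean rank of the 77 regions with IL-4 (vertical) against the mean rank without IL-4 (horizontal), in percent ranked higher, among all peaks of a library (left) and among regions called in all 4 libraries (right). Bars span the 2 libraries of a condition, the line marks equal ranks, and the regions named lie on the same side without overlap of the conditions in both panels. Points lie mostly below the line on the left and on both sides of it on the right.

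Regions called in fewer libraries can be read by placing an absent peak below the whole list. The counts were then 16 nearer the top with IL-4 and 4 without, against 15.6% and 3.99% of all merged regions. Among these, Irf4 +26.8 kb (chr13:30775757-30776302), in intergenic DNA downstream of Irf4, was picked after looking at its values. It ranked behind 92.2% of peaks in iTreg+PBS replicate 1, was not called in iTreg+PBS replicate 2, and ranked behind 27.8% and 34.9% in iTreg+IL-4 replicates 1 and 2. Its heights were 24 fragments in iTreg+PBS replicate 1 and 112 and 69 fragments with IL-4. The next region of the locus, Irf4 +28.6 kb, was called in all 4 libraries, with 27.8% and 55.7% of peaks above it in the iTreg+PBS libraries against 21.0% and 35.3% in the iTreg+IL-4 libraries, and there the conditions overlapped.

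The letters bound by these factors were searched on both strands in the central 200 bases of the distal regions. The AP-1 motif stood in 19 of 112 regions (17.0%, 95% Wilson interval 11.1 to 25.0%), against 14.6% of all 79105 distal regions. It was found in 5 of 16 distal regions at Batf3, 5 of 12 at Irf8 and 4 of 23 at Irf4, and in none of the 10 at Fos, the 6 at Jun or the 6 at Fosl2. The AP-1 matches printed for Jun +16.6 kb and Batf +40.3 kb lie outside those 200 bases, and these regions are not among the 19. An IRF motif, GAAA repeated after 2 bases, stood in 10 regions (8.93%, 4.92 to 15.7%), against 5.21% of all. Irf4, the locus with the most distal regions, held 4 of these 10. The ETS-IRF element, GGAA and GAAA spaced 2 bases apart, stood in 4 regions (3.57%, 1.40 to 8.82%), against 2.44%, and 3 of them were at Batf3. The IRF and ETS-IRF letters can overlap in one stretch.

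The AP-1-IRF composite elements, with TTTC 4 bases before the AP-1 motif or GAAA directly before it, were in 0 of 112 distal regions, which allows a share of up to 2.68% by the limit of 3 counts (Wilson upper limit 3.32%), against 0.786% of all distal regions. The palindromic CRE (TGACGTCA) was in 0 of 112 too, against 0.386%. STAT6-type palindromes stood in 12 regions (10.7%, 6.24 to 17.8%), against 6.34% of all, with 4 at Batf and 4 at Batf3. In 200 bases the share of all distal regions lay within the interval for every one of these motifs. Among the distal regions called in all 4 libraries, the IRF motif stood in 7 of 56 (12.5%, 6.19 to 23.6%), against 5.94% of all such regions, which lies just outside the interval. In 400 bases the STAT6-type letters stood in 20 regions (17.9%, 11.9 to 26.0%), against 11.6% of all, which lies outside the interval, and over whole regions in 21 (18.8%, 12.6 to 27.0%), against 13.4%, which lies inside it. Regions of a locus are not independent, and the intervals cover counting error only.

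**Figure D5:**
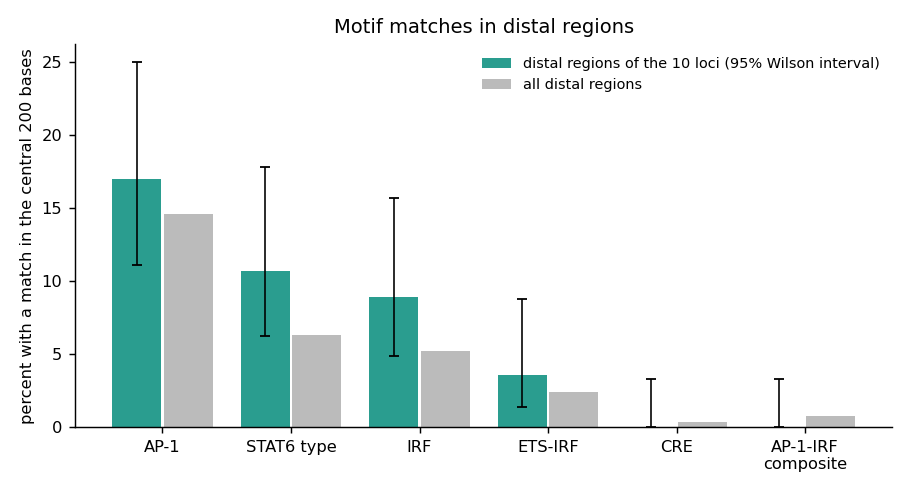
Percent of distal regions with a motif match in their central 200 bases, for the 112 regions of the 10 loci (green, with 95% Wilson intervals) and for all 79105 distal regions (grey). The grey bar lies inside the green interval for each motif, and the composite and CRE bars of the loci are at 0.

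In the promoters as RefSeq gives them (GRCm38, 250 bases before to 50 after the start), 10 promoters of 9 members were matched by symbol, and Fosl1 had no entry. None held the AP-1, CRE, composite, ETS-IRF or STAT6-type letters, which stood in 7.81% (AP-1), 1.79% (CRE), 2.72% (ETS-IRF) and 6.95% (STAT6 type) of all 32851 promoters and, for the composites, in 0.119% (TTTC) and 0.125% (GAAA). The IRF letters stood in 1, that of Fosl2, against 3.44% of all promoters. These starts are not always those used above: RefSeq places the start of Jund upstream of the promoter region described for it, and that of Fosl2 downstream of its GENCODE start. Only exact letters were searched in the promoters, so sites that differ from them in any base were not counted.

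Most genes of the wider family also had an open promoter. Of 29 further genes, 28 had a promoter peak in all 4 libraries, against 57.4% of all protein-coding genes. They were 14 of 15 AP-1, ATF, BATF and MAF partners, 7 of 7 other IRFs and 7 of 7 kinases upstream of JUN and FOS. The exception was Batf2, called in 2 libraries. Bases inside peaks were higher in both iTreg+IL-4 libraries at 3 of the 29 loci and lower in both at 0, against the 16.3% and 1.92% of all loci given above. Mapk8, which encodes the JUN kinase JNK1, had 1885 and 1634 bases for iTreg+PBS against 2235 and 2442 for iTreg+IL-4. The repressor Bach1 had 4995 and 4819 against 5814 and 5463 bases, and Irf9 6117 and 5770 against 7145 and 6118 bases. At Irf9 the conditions were separated by a single base.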

How the data were processed

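ATAC-seq peak lists of 2 iTreg+PBS and 2 iTreg+IL-4 libraries were analysed, grouped by the treatment given in the labels. The authors sequenced on the BGISEQ-500 platform, and the submitters' processing notes name Bowtie2 2.2.5, MACS2 2.1.2, bedtools 2.16.2 and mm10. The caller's settings, shifting of reads and removal of duplicates are not given in the sources used here, and their effect on ranks was not tested. Each list carries 2 deposited values per peak without column names, read from their ranges as the −log10 q-value and the height of the pileup signal, which the authors did not scale between libraries. The lists hold no read depth, so a missing peak means that none passed the caller's threshold.

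Peaks sharing at least 1 base were merged. Gene records and start sites came from the GENCODE annotation and sequence from GRCm38, whose chromosome ends hold all peaks. Python 3.11.15, numpy 2.4.6, pandas 2.3.3, scipy 1.17.1 and pysam 0.24.0 were used, and counting was tested on simulated lists. The members, lists and tests were chosen with earlier results of these data known. A few genes of the wider lists are not reported here and were left out of their counts. The regions named were all promoters, those called in 1 condition only, the best ranked distal region per locus and up to 5 with the largest rank difference in each direction. Loci were compared by the exact two-sided permutation test over libraries. Alternatives were stricter or equal lists, other overlaps, flanks, promoters, ranks and motif windows, each library left out, and the replicate number as a block. Intervals are Wilson's at 95%.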

Additional observations from a re-analysis of the deposited data

How the results depend on the processing

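Against 1 region found with IL-4 alone, there were 2 with lists of equal length, 2 with a reciprocal overlap of 50% and 0 with 10 kb on each side of the genes, and the count ranged from 1 to 17 with a library left out. Those called only without IL-4 numbered 1 with 100 kb on each side, against 0, and ranged from 1 to 11 with a library left out. Regions nearer the top without IL-4 numbered 10 when ranked among the regions called in all 4 libraries, against 4, which was chosen as an alternative after seeing the data, as was placing absent peaks last. The share of distal regions with an AP-1 motif rose from 17.0% to 26.8% in 400 bases and 30.4% over whole regions, as more bases were searched (22.2% and 24.9% of all distal regions). Promoter peaks in all 4 libraries fell to 9 genes in the upper 50% of each list, and to 9 when a peak had to cover the start site itself. Of 204 recomputed values, 179 stayed within the spread of the libraries (counts within 1.5 times), and 25 moved by more. Differences in bases per locus, which no test called, changed sign in 20 of 90 cases.

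Under a block for the replicate number, the difference in bases over the loci was 3854.5 and the median rank difference -2.34 points, and the smallest p that this design allows is 0.5. Deviations of same-numbered libraries from their condition's mean rank correlated at 0.452 over 47767 regions and 0.624 over the 77 at the loci (Pearson's r across regions, which share the libraries), and the labels give no reason for a shared number. The cause was not tested. Read depth is not known, so a region missing from a list cannot be told apart from one too shallowly covered to be called.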
